A study of Mus musculus with 2 samples.

Results

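Heat shock proteins and their partners were followed in 2 populations of CD8 T cells, sorted from spleens of C57BL/6 mice as CD8+CD122+ and as CD8+CD122-. The set consists of 10 genes (Hspa1a, Hspa1b, Hspa8, Hsph1, Dnajb1, Hsp90aa1, Hspd1, Hspe1, Hspa5 and Hsp90b1). Its probes were those that are not controls and whose gene name in either scanner file was one of these symbols or an older alias, such as Hsp105 for Hsph1, Hspca for Hsp90aa1 or Tra1 for Hsp90b1. They are 10 of the 19109 genes named on the array, with 17 of its 41174 probes, and 16 of these were bright enough to be tested. The sorting marker was CD122, a receptor chain through which T cells sense interleukin 2 and interleukin 15, and the series calls the CD8+CD122+ cells regulatory. The labels give no age, sex, number of mice or treatment for either population.

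Each of the 2 arrays, of Agilent's two-colour type, carried amplified polyA RNA from both populations at once. On array 1 the CD8+CD122+ RNA carried Cy5 and the CD8+CD122- RNA Cy3. On array 2, labelled as a second trial, the dyes were exchanged. Whether its mice were new ones is not stated, so p-values rest only on spread between 2 arrays. The test, limma, weighs the spread of each probe (1 residual degree of freedom) with a prior taken from all probes (1.92 degrees of freedom). The number of arrays limits the precision of every value here. Log2 ratios are given throughout with CD8+CD122+ cells on top and CD8+CD122- cells below, opposite to the deposited value table.

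The sort was visible on both arrays: Il2rb, which encodes CD122, had log2 ratios of 2.60 and 2.35, although even this gene did not pass limma (adjusted p 0.264). The 5 measured markers of CD8 T cells were all measured well above background, whichever population and array were read. Their levels were not equal: Cd8a (-0.31 and -0.91), Cd8b1 (-0.48 and -0.86) and Cd3g (-0.39 and -0.60) were lower in CD8+CD122+ cells on both arrays. Cd3d had -0.003 and -0.26, and Cd3e had -0.06 and 0.03. Neither Cd8a nor Cd8b1 passed limma (adjusted p 0.814 and 0.684). The 5 B cell markers likewise lay well above background. Their summed signals in CD8+CD122+ and CD8+CD122- cells were 719 and 756 on array 1, and on the second array 779 and 925. The 4 macrophage and monocyte markers were also above background. Lyz2 had the largest log2 ratios of them (0.77 and 0.33). Csf1r (0.07 and 0.08) and Cd14 (0.05 and 0.05) were slightly positive on both arrays, and Adgre1 had 0.02 and -0.02. Of the 4 NK cell markers 3 were above background, and the defining one, Ncr1, was not. The part of other cells in the results was not tested, and in a bulk sample fewer cells of a type and less RNA per cell cannot be told apart. Of all spots that are not controls, between 69.5% and 83.4% lay well above background, depending on population and array. Ratios spread more widely on array 2 than on array 1 (SD 0.32 against 0.21 over all 30794 probes kept).

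Heat shock proteins are molecular chaperones: they bind unfolded stretches of other proteins and help them fold, refold or reach the compartment where they work. HSP70 proteins do this in cycles of ATP hydrolysis that DNAJ proteins start and HSP110 proteins reset, and HSP90 proteins finish the folding of kinases and receptors. HSP60 and HSP10 form a folding chamber in mitochondria, while BiP and GRP94 serve in the endoplasmic reticulum. In the nucleus, heat shock factor 1 switches on many of the cytosolic genes under proteotoxic stress, and the unfolded protein response switches on those of the endoplasmic reticulum. Lymphocytes raise several of them when they are activated and begin to grow.

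For none of the 10 genes did a probe pass the test for a difference between the populations. Of the 16 probes 0 passed limma at an adjusted p under 0.05 (0% of all probes kept did), their adjusted p ran between 0.841 and 0.996, and 0 had an unadjusted p under 0.05 (6.12% of all probes). A 2-fold excess in CD8+CD122+ cells that held on each array was found for 0 of 16 probes (0.253% of all probes), and a 2-fold deficit likewise for 0 (0.0812%). The median over the 16 probes was 0.02, beside 0.00 over all probes. The largest differences were seen on array 2 alone, where Hspa5 was 2.44-fold higher and the brighter Dnajb1 probe 1.87-fold lower in CD8+CD122+ cells. A p that misses the threshold with 2 arrays does not show that the populations expressed these genes alike, and the intervals below give the range that the data leave.

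**Figure D1:**
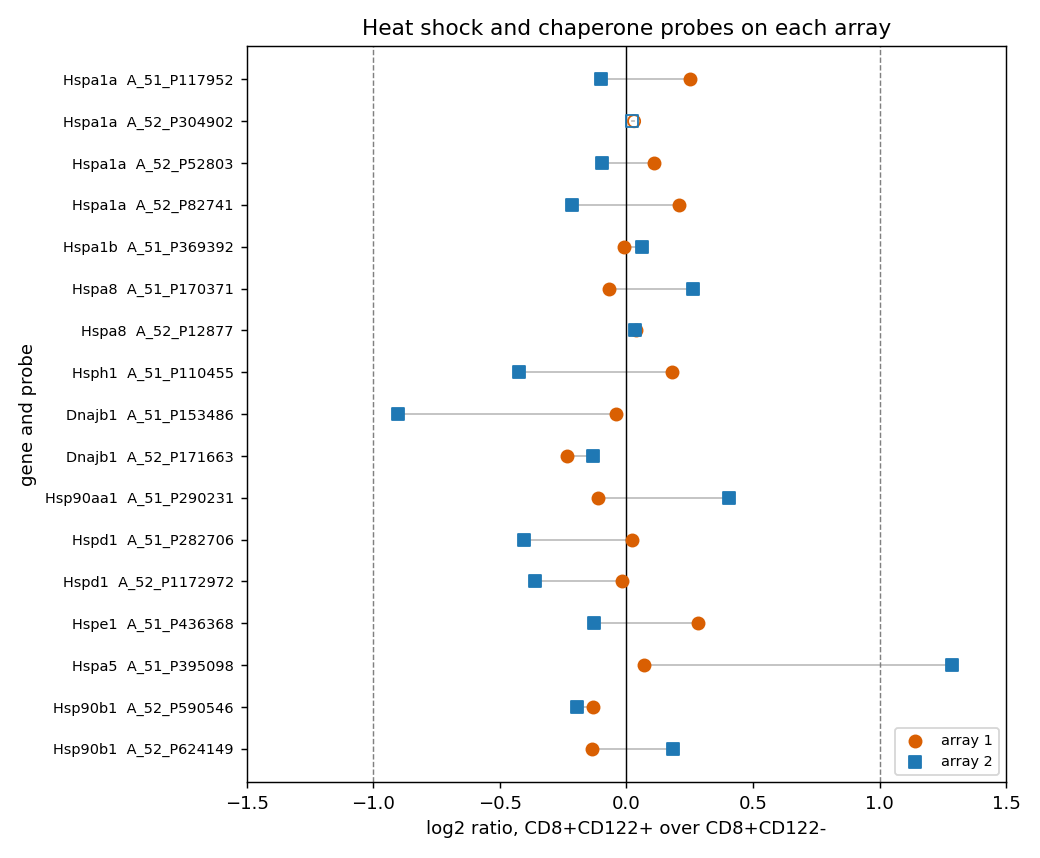
Log2 ratio of CD8+CD122+ over CD8+CD122- (x axis) for each of the 17 probes (y axis), with a circle for array 1, a square for array 2 and a line joining them; dashed lines mark 2-fold and open symbols the Hspa1a probe that was too dim to be tested. All circles lie between -0.23 and 0.28, while the squares run from -0.90 (Dnajb1) to 1.28 (Hspa5).

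The stress-inducible HSP70 genes, Hspa1a and Hspa1b, gave dim signals. Hspa1a, the classical heat-induced HSP70, had 4 probes. On probe A_52_P82741 its normalised signal, the spot intensity after background correction and loess, was 126 in CD8+CD122+ and 109 in CD8+CD122- cells on array 1, and on the second array 143 and 166. Probe A_51_P117952 read 94.9 and 79.7 on array 1, then 102 and 109 on array 2. Probe A_52_P52803 gave 82.4 and 76.5 on array 1, and on the second array 88.5 and 94.5. All of these probes were thus slightly higher in CD8+CD122+ cells on array 1 and slightly lower on array 2, and their mean log2 ratios were 0.00 ± 0.30, 0.08 ± 0.25 and 0.01 ± 0.14 (SD, n = 2 arrays, here and below). The remaining Hspa1a probe, A_52_P304902, was not well above background in either population on either array and was not tested. At these signals the offset of the background correction pulls ratios towards 0. With the scanner's own processed signals the ratios of A_51_P117952 were 0.76 on array 1 and -0.25 on array 2, still of opposite sign.

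Hspa1b, the second inducible HSP70 gene, was represented by a single probe, A_51_P369392, with signals of 167 and 168 on array 1, and on the second array 218 and 209 in CD8+CD122+ and CD8+CD122- cells. Its mean log2 ratio was 0.03 ± 0.05, with a 95% interval of -0.18 to 0.23. This value may not speak for Hspa1b: the array design describes the target as an expressed sequence of unknown product and places it on the opposite strand of chromosome 17 from the one RefSeq gives for Hspa1b. Over all named probes placed on their gene's chromosome, 97.5% lay on the gene's strand. Of the 4 Hspa1a probes, those named A_52_P304902 and A_52_P52803 list transcripts of both genes, which encode nearly the same protein, so signals of Hspa1a and Hspa1b cannot be separated by them.

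The start regions of this pair are near copies as well. Over the 250 bases before the start site, taken from the RefSeq table for GRCm38.p6, Hspa1a and Hspa1b matched at 247 bases (98.8%) with no gaps. Because they are so alike, only that of Hspa1a is shown. It runs along the minus strand of chr17:34972157-34972406 and is printed 5′ to 3′, with the match to a head-to-head heat shock element (GAANNTTC, which is its own reverse complement, so that both strands are covered) in capitals.
Hspa1a: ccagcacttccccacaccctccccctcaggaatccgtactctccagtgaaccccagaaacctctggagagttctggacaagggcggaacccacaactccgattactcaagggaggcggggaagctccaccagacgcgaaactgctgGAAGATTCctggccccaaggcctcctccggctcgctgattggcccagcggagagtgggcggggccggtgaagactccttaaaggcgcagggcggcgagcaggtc
The match lay 104 to 97 bases before the start in both genes, that is at -104 to -97, and 6.69% of all 32851 start regions of that length in the table hold one.

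Hspa8, the constitutive cytosolic HSP70 that also strips clathrin from vesicles, was bright and nearly level. Probe A_51_P170371 gave 12100 in CD8+CD122+ and 12680 in CD8+CD122- cells on array 1, and on the second array 15930 and 13280. Probe A_52_P12877 gave 677 and 659 on array 1, and on the second array 1447 and 1411. Probe A_51_P170371 had log2 ratios of -0.07 and 0.26, and A_52_P12877, at 0.04 on both arrays, was the most even probe of the set (SD 0.003). Its mean of 0.04 had a 95% interval of -0.15 to 0.23, which leaves out a difference of 2-fold. With so small an SD, the width of this interval comes mostly from the prior SD of 0.103 that limma takes from all probes. The design places both Hspa8 probes on chromosome 5, whereas RefSeq has the gene on chromosome 9, and whether a copy of Hspa8 elsewhere in the genome shares their signal was not tested.

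Hsph1 and Dnajb1, partners of HSP70, were lower in CD8+CD122+ cells on array 2. Hsph1, an HSP110 protein that exchanges the nucleotide of HSP70, had 1297 in CD8+CD122+ and 1144 in CD8+CD122- cells on array 1, and on the second array 1428 and 1916. The log2 ratio was 0.18 on array 1 and -0.42 on array 2, so the arrays disagreed in sign (mean -0.12 ± 0.43; adjusted p 0.942). Dnajb1, the DNAJ protein that delivers clients to inducible HSP70, gave 1808 and 1857 on array 1, and on the second array 2808 and 5251 with probe A_51_P153486. This probe was even on array 1 (-0.04) and lower in CD8+CD122+ cells on array 2 (-0.90), a value reached or passed downwards by 0.977% of all probes on that array. Its other probe, A_52_P171663, gave 545 and 640 on array 1, and on the second array 520 and 568, for ratios of -0.23 and -0.13. Dnajb1 was thus negative in all 4 measurements, but its probes disagreed on which array carried the difference. The means were -0.47 ± 0.61 (95% interval -1.31 to 0.37; adjusted p 0.885) and -0.18 ± 0.07 (-0.40 to 0.03; adjusted p 0.841).

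**Figure D2:**
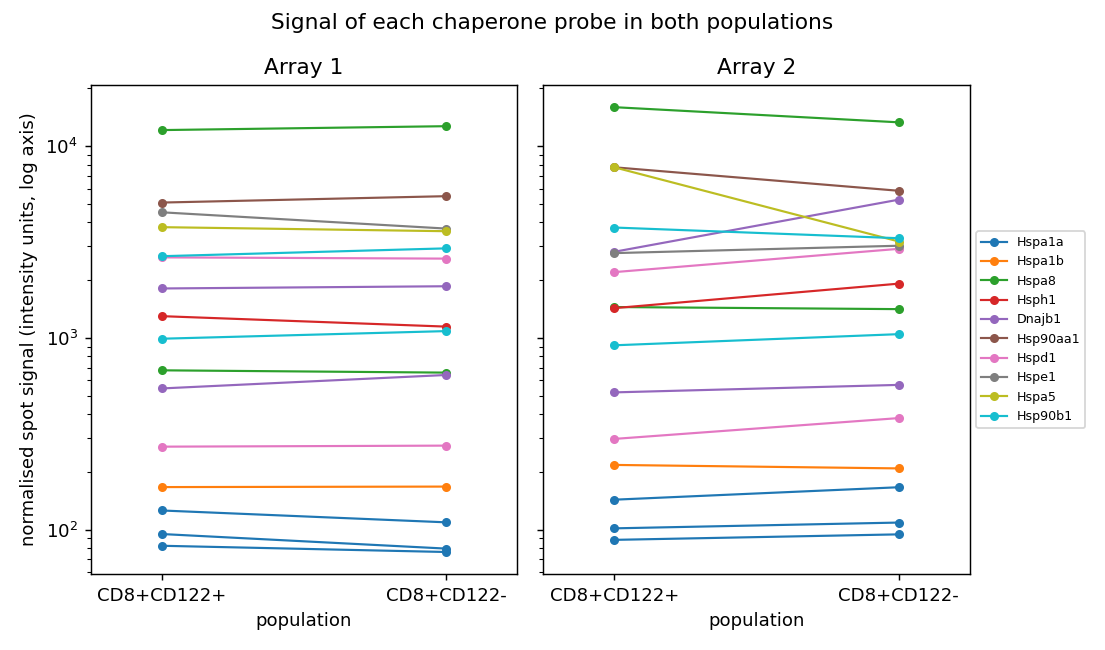
Normalised spot signal (y axis, log scale, intensity units) of the 16 tested probes in CD8+CD122+ and CD8+CD122- cells, with 1 panel per array and 1 line per probe, coloured by gene. Lines are nearly flat on array 1. On array 2 the line of Hspa5 joins 7741 in CD8+CD122+ cells and 3177 in CD8+CD122- cells, while that of Dnajb1 slopes the other way, with 2808 in CD8+CD122+ and 5251 in CD8+CD122- cells; signals of different probes are not comparable.

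The start regions of these partners differed in the letters searched. Hsph1 has 2 RefSeq start sites, and a tail-to-tail element (TTCNNGAA, also its own reverse complement, present in 7.17% of all start regions) lay at -54 to -47 before one and at -33 to -26 before the other, which is the same stretch of chromosome 5. Neither of the 2 start regions of Dnajb1 held any of the heat shock patterns in these 250 bases. The first is shown because Dnajb1 had the lowest ratio of the set. It is the plus strand of chr8:83607925-83608174.
Dnajb1: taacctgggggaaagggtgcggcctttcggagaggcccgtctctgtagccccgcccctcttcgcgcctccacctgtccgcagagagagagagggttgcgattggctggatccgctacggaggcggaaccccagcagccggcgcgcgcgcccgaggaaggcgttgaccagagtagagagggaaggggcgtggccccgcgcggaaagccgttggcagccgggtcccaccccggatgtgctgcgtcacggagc
It has no capitals because no heat shock or ER stress pattern was found in it, which says nothing about elements outside this window or spelled otherwise.

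Hsp90aa1, the inducible cytosolic HSP90, had signals of 5070 in CD8+CD122+ and 5474 in CD8+CD122- cells on array 1, and on the second array 7742 and 5840. The log2 ratio was -0.11 on array 1 and 0.41 on array 2, with a mean of 0.15 ± 0.37 (95% interval -0.38 to 0.67; adjusted p 0.931). Hsp90ab1, the constitutive cytosolic HSP90, showed the same order of the arrays, with -0.22 on array 1 and 0.18 on array 2 (mean -0.02 ± 0.28). Neither gene kept its sign between the arrays.

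The mitochondrial chaperonin genes were level or higher on array 1 and lower on array 2 in CD8+CD122+ cells. Hspd1 encodes HSP60, the folding chamber, and Hspe1 encodes HSP10, its lid. Hspd1 probe A_51_P282706 gave 2626 in CD8+CD122+ and 2587 in CD8+CD122- cells on array 1, and on the second array 2200 and 2910. Probe A_52_P1172972 gave 271 and 274 on array 1, and on the second array 297 and 382. Both probes were level on array 1 (0.02 and -0.02) and about as much lower in CD8+CD122+ cells on array 2 (-0.40 and -0.36), and their means were -0.19 ± 0.30 and -0.19 ± 0.24 (adjusted p 0.904 and 0.885). Hspe1 gave 4511 and 3710 on array 1, and on the second array 2764 and 3020, or log2 ratios of 0.28 and -0.13 (mean 0.08 ± 0.29; adjusted p 0.948). On each array the ratio of Hspe1 was thus above that of both Hspd1 probes.

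**Figure D3:**
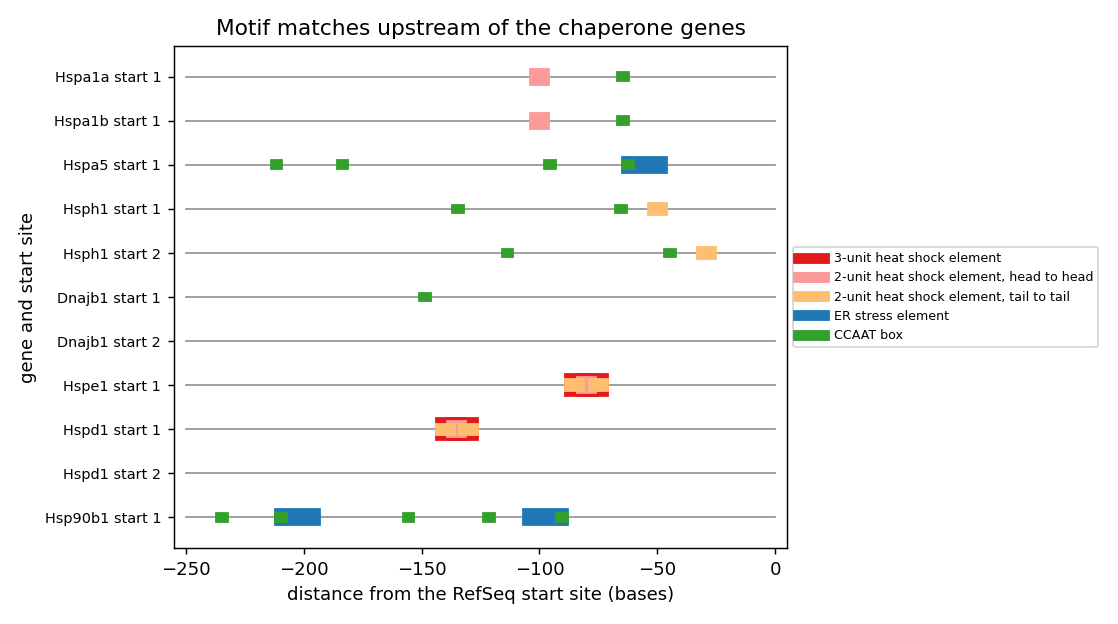
Matches of 5 motifs over the 250 bases before each of the 11 RefSeq start sites of 8 of the genes (y axis), against the distance from the start site in bases (x axis); boxes are drawn to scale, and the smaller heat shock patterns and CCAAT boxes are drawn over the longer motifs that contain them. The 3-unit element of Hspe1 (-89 to -72) and of Hspd1 (-144 to -127) is the same stretch of chromosome 1, and ER stress elements lie before Hspa5 and Hsp90b1.

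These genes lie head to head on chromosome 1. Hspd1 has 2 RefSeq start sites, and the region before the other one shares 0 bases with that of Hspe1 and held no heat shock pattern. The region before the first shares 215 bases with that of Hspe1, which matched at all 215 positions once 1 region was reverse-complemented. Within the shared stretch lies a run of alternating heat shock units. It holds a 3-unit element (GAA, TTC and GAA in a row with 2 bases of any kind between them, searched on both strands) once on each strand, and the matches overlap each other and the 2-unit patterns inside them. Such an element was found in 0.466% of all start regions. The plus strand of chr1:55087898-55088147, before Hspe1, is shown because 1 element faces both genes, and its capitals mark all heat shock units found.
Hspe1: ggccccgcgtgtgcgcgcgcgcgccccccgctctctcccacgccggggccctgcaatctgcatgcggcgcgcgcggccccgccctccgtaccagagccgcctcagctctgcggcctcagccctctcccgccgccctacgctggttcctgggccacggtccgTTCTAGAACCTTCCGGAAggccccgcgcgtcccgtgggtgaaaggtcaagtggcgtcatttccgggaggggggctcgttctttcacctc
The match is a description of letters, and binding at it was not measured in these files.

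Hspa5 was the gene with the largest ratio. It encodes BiP, the HSP70 of the endoplasmic reticulum which also holds the sensors of the unfolded protein response inactive. Its signals were 3774 in CD8+CD122+ and 3595 in CD8+CD122- cells on array 1, and on the second array 7741 and 3177. On array 1 the populations were nearly level (log2 ratio 0.07), whereas on array 2 the signal of CD8+CD122+ cells was 2.44-fold that of CD8+CD122- cells (1.28). Hspa5 was the 1 probe of 16 that was at least 2-fold higher on array 2 (1.09% of all probes), and 0 were 2-fold lower there (0.711%). The mean of 0.68 ± 0.86 had a 95% interval of -0.49 to 1.84 and an adjusted p of 0.885. The scanner's processed signals gave 0.07 and 1.30. Plasma cells are rich in BiP. The summed signal of the plasma cell markers Sdc1, Jchain and Prdm1 in CD8+CD122+ and CD8+CD122- cells was 228 and 213 on array 1, and on the second array 243 and 233. The offset of 50 is part of each of these signals and draws the sums together, and Sdc1 ran only from 58.2 to 66.1. All 3 markers were above background in CD8+CD122+ cells on array 1 and in CD8+CD122- cells on array 2, and 2 of 3 in the other samples. The part of such cells in the Hspa5 value was not tested.

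Hsp90b1 encodes GRP94, the HSP90 of the same compartment, which folds integrins and Toll-like receptors. Probe A_52_P624149 gave 2663 in CD8+CD122+ and 2926 in CD8+CD122- cells on array 1, and on the second array 3757 and 3305, with ratios of -0.14 and 0.19. Probe A_52_P590546 gave 989 and 1084 on array 1, and on the second array 914 and 1045, with ratios of -0.13 and -0.19. The probes were alike on array 1 and opposite in sign on array 2 (means 0.02 ± 0.23 and -0.16 ± 0.04, adjusted p 0.978 and 0.841). On array 2 Hspa5, at 1.28, stood above both of these probes. The start regions of Hspa5 and Hsp90b1 hold the ER stress element (CCAAT, then 9 bases of any kind, then CCACG, on either strand). Only 0.113% of all start regions hold it. It includes a CCAAT box, which on its own occurs in 33.8%. Both are shown with the element in capitals, Hspa5 on the plus strand of chr2:34771840-34772089 and Hsp90b1 on the minus strand of chr10:86705445-86705694.
Hspa5: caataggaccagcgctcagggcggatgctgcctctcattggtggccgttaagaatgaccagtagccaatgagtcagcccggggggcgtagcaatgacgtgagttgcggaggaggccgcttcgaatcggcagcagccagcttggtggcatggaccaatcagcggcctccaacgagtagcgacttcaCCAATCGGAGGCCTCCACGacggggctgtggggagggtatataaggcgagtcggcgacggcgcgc
Hsp90b1: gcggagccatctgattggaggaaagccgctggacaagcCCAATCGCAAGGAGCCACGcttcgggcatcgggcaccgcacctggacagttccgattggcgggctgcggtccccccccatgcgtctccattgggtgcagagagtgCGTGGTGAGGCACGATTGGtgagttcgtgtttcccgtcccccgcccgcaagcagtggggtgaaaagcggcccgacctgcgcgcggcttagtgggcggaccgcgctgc
Hspa5 has 1 match at -65 to -47, and Hsp90b1 has 1 on the sense strand at -212 to -194 and 1 on the other at -107 to -89. Start regions of Hspa8 and Hsp90aa1 were not used here.

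The signs on the 2 arrays were compared for each of the 16 probes. A positive ratio on both arrays was found for 2 probes (Hspa5 and Hspa8 A_52_P12877; 27.8% of all probes kept), a negative one on both for 4 (both Dnajb1 probes, Hspd1 A_52_P1172972 and Hsp90b1 A_52_P590546; 25.6%), and opposite signs for 10 (46.6%). Of these 10, 6 were positive on array 1 and negative on array 2, so that Cy5 was the brighter dye on both arrays, and 4 were the other way round. With 1 array per dye orientation, a dye difference of a probe and a difference between the trials cannot be told apart. On array 1, 0 of 16 probes were 1.5-fold apart (1.72% of all probes), and on array 2 Hspa5 and Dnajb1 A_51_P153486 were (2 of 16; 6.44%). Most of the set is bright, and bright probes spread more. Among the 12 of these probes with a mean log2 intensity of 8 or more, the share past 1.5-fold on array 2 was 16.7%, beside 14.6% of the 7273 probes of that brightness, and on array 1 it was 0, beside 4.25%. Opposite signs were found for 6 of these 12 (50%), beside 46.6% of the probes of that brightness. The dimmer tested probes were all of Hspa1a or Hspa1b, and each had opposite signs.

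**Figure D4:**
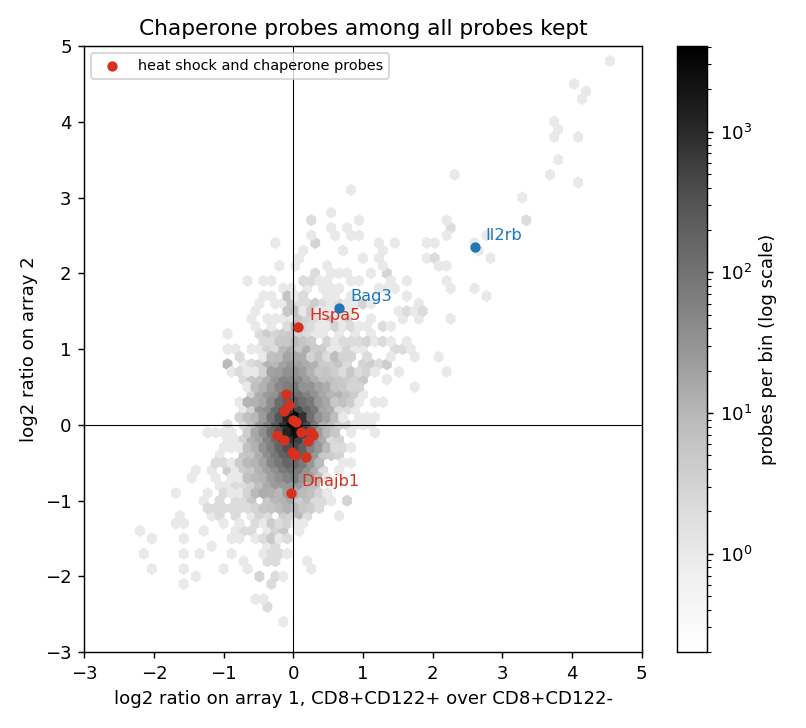
Log2 ratio of CD8+CD122+ over CD8+CD122- on array 1 (x axis) and array 2 (y axis) for all 30794 probes kept, as grey bins shaded by the number of probes on a log scale, with the 16 chaperone probes in red and Il2rb and Bag3 in blue. The red points lie within the dense centre on array 1, and Hspa5 (1.28) and Dnajb1 (-0.90) stand furthest from 0 on array 2.

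The wider folding machinery also gave no calls. A list of 171 chaperone, cochaperone, heat shock factor and unfolded protein response genes, none of them of the set, was read at the brightest probe of each gene, which left 158 genes. Limma passed 0 of them in either direction (smallest adjusted p 0.624), and it passed 0 of all 16322 named genes. Of the 158, 15 had an unadjusted p under 0.05 (7.45% of all named genes did). A 2-fold difference on both arrays was found for 0 (0.386% of all named genes were higher and 0.141% lower). Positive on both arrays were 40 (28.3% of all named genes) and negative on both 46 (25.4%), with a median of -0.01 beside 0.00 over all named genes.

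The 10 other HSP70 and HSP110 genes, of all compartments, had a median of 0.05, with 3 positive and 2 negative on both arrays. Hspa2, a testis-rich HSP70, had 0.36 ± 0.14, or 0.85 with the processed signals, and its other probe averaged 0.10. Hspa4l, an HSP110 protein, had -0.19 ± 0.06. Hspa4, chosen after its values were seen, had 0.13 ± 0.48, though the means of its 5 probes ran from -0.76 to 0.19. The DNAJ family had a median of -0.01 over 38 genes, 8 positive and 14 negative on both arrays. Dnaja2, a cytosolic partner of Hspa8, had 0.32 ± 0.31, Dnaja4 0.24 ± 0.15, Dnajc4 -0.41 ± 0.26 and Dnajc10, a reductase of the endoplasmic reticulum, -0.40 ± 0.04. Other probes of Dnajc4 and Dnajc10 reached -0.03 and -0.06. The chaperonin TRiC and prefoldin, which fold actin and tubulin, had a median of -0.05 over 15 genes, 3 positive and 8 negative on both arrays, with Pfdn2 at -0.19 ± 0.12 and Pfdn4 at 0.09 ± 0.05. Of 7 genes listed by name as small heat shock proteins, 2 were positive and 2 negative on both arrays. Hspb11, which is in that list by its symbol alone, was the lowest (-0.54 ± 0.32).

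Among 23 cochaperones, 6 were positive and 5 negative on both arrays, with a median of 0.01. Bag3, which couples HSP70 to autophagy and is a known target of heat shock factor 1, had the highest mean ratio of all the folding genes. Its signals were 225 in CD8+CD122+ and 142 in CD8+CD122- cells on array 1, and on the second array 376 and 130. Both arrays were thus higher in CD8+CD122+ cells, with log2 ratios of 0.66 and 1.54 (2.14-fold on average; adjusted p 0.752), and array 1 fell short of 2-fold. With the processed signals the ratios were 0.96 and 2.05. At the low end stood Stub1, the ubiquitin ligase CHIP (-0.34 ± 0.35), and Ahsa1, which activates HSP90 (-0.30 ± 0.18). Hsf1, the heat shock factor itself, had 0.02 on array 1 and 0.04 on array 2, and Hsf2 had no probe that could be tested.

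In the endoplasmic reticulum, 28 other chaperones had a median of -0.05 on array 1 and 0.11 on array 2, with 8 positive and 7 negative on both. Txndc5, a disulfide isomerase, had 0.45 ± 0.13, Ero1b, an oxidase, 0.45 ± 0.49 and Fkbp2 -0.27 ± 0.18. The other probes of Txndc5 and Ero1b averaged 0.10 and 0.08, and the processed signals gave 0.82 and 0.77 for the brightest probes. The 23 genes of the unfolded protein response and of degradation from this compartment had medians of -0.01 and 0.03, with 7 positive and 5 negative on both arrays. Xbp1, a transcription factor that drives the response, had signals of 97.1 in CD8+CD122+ and 105 in CD8+CD122- cells on array 1, and on the second array 245 and 137. It was slightly lower in CD8+CD122+ cells on array 1 (-0.11) and higher on array 2 (0.84; mean 0.36 ± 0.67, adjusted p 0.911). Ddit3, the factor CHOP, had 0.15 and 0.47, Atf4 0.08 and 0.32, and Herpud1 0.25 and 0.34, all positive on both arrays, whereas Edem1 had -0.32 and -0.57, though another of its 5 probes averaged 0.08, and Atf6b had -0.08 and -0.42. None of these passed limma, nor did any other named gene, and the smallest adjusted p in this list was 0.708.

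In mitochondria, 16 other chaperones and proteases had a median of 0.01 on array 1 and -0.11 on array 2, with 2 positive and 4 negative on both. Hspa9, the mitochondrial HSP70 that hands proteins to HSP60, had -0.07 and 0.29 (mean 0.11 ± 0.26). Hscb, its partner in making iron-sulfur clusters, had 0.42 ± 0.07 and Yme1l1, an inner membrane protease, -0.23 ± 0.18, though another of its 4 probes averaged 0.15.

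**Figure D5:**
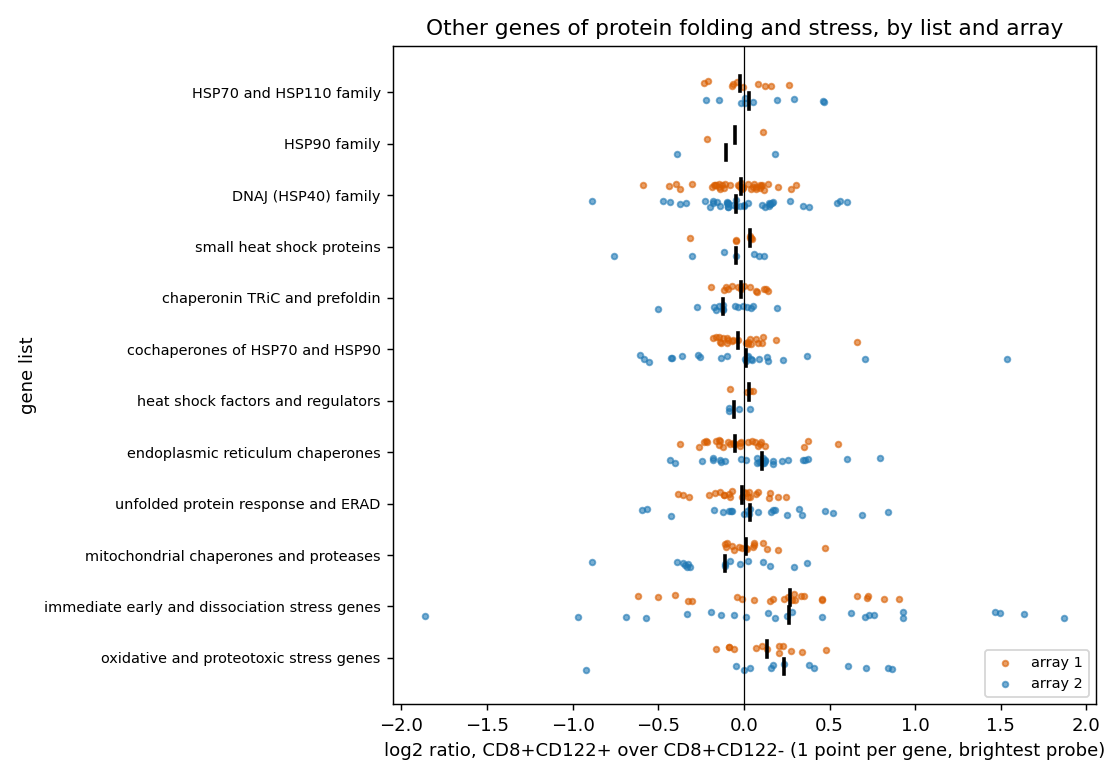
Log2 ratio of CD8+CD122+ over CD8+CD122- (x axis) of the genes of 12 lists (y axis), with 1 point per gene at its brightest probe, orange for array 1 and blue for array 2, and a black bar at each median. The medians of the first 10 lists lie between -0.12 and 0.11 on either array, and the isolated point at 1.54 among the cochaperones is Bag3.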

How the data were processed

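Per the submitters' processing notes the arrays were read with Agilent Feature Extraction, and the file headers give version A.7.5.1 on array 1, then 8.1.1.1 on array 2. The deposited scanner files hold intensity values per spot on a linear scale, with background and processed signals, flags of 0 or 1, and Agilent's log10 ratio (red over green). The authors' series value table holds these log10 ratios, negated for array 1 and unaltered for array 2. Its direction, found by comparison with the scanner files, is CD8+CD122- over CD8+CD122+ on both arrays, the column medians are 0, and how it was centred is not stated.

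Mean spot intensities were corrected with normexp (median local background, offset 50) and loess-normalised within each array, control spots carrying weight 0, by limma 3.58.1 (R 4.3.3). Outlier spots were left out and spots of a probe averaged, and no probe of the set was saturated. A probe was kept if 1 population was well above background on both arrays, which left 30794 of 41174. Signs were turned for the dye exchange. Each probe was fitted with lmFit and eBayes (1 coefficient, two-sided, 1 residual degree of freedom), with Benjamini-Hochberg adjustment over all probes kept and a threshold of 0.05, and intervals are limma's moderated ones at 95%. A rule of size, 2-fold the same way on both arrays, stood beside it without a p-value. Normalised signals compare populations within 1 array and 1 probe only.

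Probes were named through the RefSeq table of GRCm38.p6 (32016, or 77.8%). No genome build is given for the array design, so of its positions only chromosome and strand are used. Named genes were all probes of the set, Cd8a, Cd8b1 and Il2rb, of each list the 2 highest and 2 lowest genes with the same sign on both arrays, any gene passing the rule of size, and Hsf1, Hsf2, Hsp90ab1, Hspa9, Xbp1, Ddit3 and Atf4; not all of them are given values in the text. The members and lists were chosen with earlier results of these data known. The steps were tested on simulated arrays. 1 gene of the lists is not reported here.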

Additional observations from a re-analysis of the deposited data

How the results depend on the processing

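The alternatives were the processed signals, the series value table, a normexp offset of 16, median centring, no filter and a stricter filter on dim probes, a trended and a robust variance prior, and each array alone. With the signal, offset, centring and filter alternatives no probe of the set passed limma (smallest adjusted p 0.828) and no mean moved by more than 0.18. A single array allows no test, and results with the trended and robust priors are not given here. Over all probes, the processed signals and the value table each gave 199 probes 2-fold higher and 85 lower on both arrays, against 78 and 25. The offset of 16 gave 120 and 42, with 6 probes called by limma, against 0 (smallest adjusted p 0.0481 against 0.146), and median centring gave 16 lower. The count of probes of the set positive on both arrays was 1 in place of 2 with median centring, and 1 with the brightest probe of each gene, an alternative chosen after seeing the data. Without the probe named Hspa1b, likewise chosen afterwards, it was 2 of 15. With 1 array left out, the median over the set ran from -0.11 to 0.00626, its probes 2-fold apart from 0 to 1 (Hspa5, array 2), its positive probes from 6 to 8, all probes 2-fold higher from 109 to 336 and 2-fold lower from 42 to 219. Signs of single probes of the set turned for 2 of 16 with the processed signals, 1 with the offset of 16, 1 with median centring, 3 with array 2 alone and 7 with array 1 alone. No paired analysis was possible because each array already compares both populations, and a further term for the dye would leave 0 residual degrees of freedom. The offset of 50 shrinks ratios of dim probes, which limits what the Hspa1a probes can show.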

Other observations

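Of 24 immediate early genes, 12 were positive and 3 negative on both arrays (28.3% and 25.4% of all named genes). Such genes are also induced when tissue is taken apart. Limma passed 0 of the 24 (smallest adjusted p 0.474), and 0 of all named genes. Nr4a1, a nuclear receptor induced by T cell receptor signals, had log2 ratios of 0.91 and 1.87. Gadd45b, a stress sensor, averaged 1.11 ± 0.55, while Egr3 had -0.41 and -0.69. The other probes of Gadd45b and Egr3 averaged 0.55 and -0.18. The median of the 24 genes was 0.19, beside -0.01 for the folding genes. The oxidative and proteotoxic stress list had 7 of 13 genes positive on both arrays and 0 negative on both, with Txn1, the cytosolic thioredoxin, at 0.54 ± 0.09 (adjusted p 0.585).

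Fos and Jun, chosen after their values were seen, parted between the arrays. Fos had signals of 1240 in CD8+CD122+ and 1009 in CD8+CD122- cells on array 1, and 403 and 1462 on array 2, for log2 ratios of 0.30 and -1.86. Jun had 0.06 and -0.57. Of their relatives in the same list, Jund (0.93), Fosl2 (0.63), Junb (0.28) and Atf3 (1.47) were higher in CD8+CD122+ cells on array 2. Fosl2 averaged 0.16 over both arrays at this probe and 1.48 at its other one. Fosb was lower on array 2 (-0.33), though its other probe averaged 0.13 over both arrays. The list's median on array 2 was 0.27, and 4 of its 24 genes were 2-fold higher there and 1 was lower. Of all 16322 named genes, 221 were 2-fold higher on array 2 and 147 lower.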
